A study of Mus musculus with 9 samples.

Results

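The myeloid C-type lectin receptors are surface proteins by which monocytes, macrophages, dendritic cells and neutrophils bind sugars, lipids and products of damaged cells. They were taken here as 8 genes, Clec4a2, Clec4d, Clec4e, Clec4n, Clec5a, Clec7a, Clec10a and Clec12a, and their members on the array were all probes whose accession belongs to one of these genes. Of the 41174 probes on the array, 11 belonged to 7 of the 8 genes, and 10 of those 11 were tested, out of 36585 tested in all. No probe was tied to Clec7a, the beta-glucan receptor Dectin-1, so its level was not analysed here.

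FDCPmix is a mouse line of multipotent hematopoietic progenitors that renews itself in IL-3. There were 3 groups of 3 arrays. EV cells carried the empty lentiviral vector, Gata2 KD cells carried shRNA against Gata2, and Pu.1 KD cells carried shRNA against Pu.1, whose gene is Spi1. All cells were kept under self-renewal conditions, and viable GFP+ cells were sorted 5 days after transduction, so every group, EV included, had been infected and sorted. The model is 1 cell line, and the labels name 1 knockdown construct for each factor. The comparison of each knockdown with EV asks how the receptor genes stand when a factor of the GATA2 and PU.1 pair is reduced under self-renewal conditions. The paper reports myeloid differentiation after knockdown of Gata2, with more of a myeloid surface marker, and fewer marker-positive cells after the other knockdown. The sorted cells were therefore not taken as uncommitted.

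C-type lectin receptors differ in how they signal. Clec5a pairs with the adaptor DAP12 (Tyrobp). Clec4n (Dectin-2), Clec4d (MCL) and Clec4e (Mincle) use the Fc receptor gamma chain (Fcer1g). Both adaptors recruit the kinase SYK, which acts through CARD9, BCL10 and MALT1 on NF-kB to switch on inflammatory genes. Clec4a2 (DCIR) and Clec12a (MICL) carry an inhibitory tail that recruits phosphatases, and Clec10a (MGL1) takes up galactose-bearing ligands. PU.1 is a general activator of myeloid genes and binds purine-rich sites with a GGAA core, whereas GATA factors bind GATA sites.

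The 250 bases upstream of the start are shown for 3 genes that behaved differently below, Clec5a (rose and fell), Clec4a2 (rose) and Clec4e (no call). The study mapped binding of both factors across the genome, and sites outside this window were not searched. They are RefSeq sequences of build GRCm38.p6, written 5′ to 3′ on the strand of the gene. Clec5a lies on the minus strand at chr6:40585806-40586055, Clec4a2 on the plus strand at chr6:123122440-123122689 and Clec4e on the minus strand at chr6:123289872-123290121. Capitals mark GAGGAA on either strand.
Clec5a: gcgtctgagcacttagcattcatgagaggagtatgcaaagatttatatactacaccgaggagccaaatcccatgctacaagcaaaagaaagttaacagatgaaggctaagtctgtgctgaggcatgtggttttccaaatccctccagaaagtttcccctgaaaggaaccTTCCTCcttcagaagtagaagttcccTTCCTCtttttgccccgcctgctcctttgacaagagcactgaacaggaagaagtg
Clec4a2: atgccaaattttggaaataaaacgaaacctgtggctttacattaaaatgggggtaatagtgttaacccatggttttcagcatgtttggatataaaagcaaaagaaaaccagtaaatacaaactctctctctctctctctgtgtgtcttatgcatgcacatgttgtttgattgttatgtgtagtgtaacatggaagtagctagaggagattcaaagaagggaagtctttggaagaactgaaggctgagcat
Clec4e: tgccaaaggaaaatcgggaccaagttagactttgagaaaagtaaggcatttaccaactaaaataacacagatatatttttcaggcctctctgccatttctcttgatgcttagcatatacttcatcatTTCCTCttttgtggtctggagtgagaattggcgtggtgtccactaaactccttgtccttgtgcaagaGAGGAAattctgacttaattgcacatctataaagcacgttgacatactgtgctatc
The motif GAGGAA, a form of the PU.1 core, was found on either strand in 23.3% of all 32851 promoter windows of this length. Windows were held for 6 of the 8 genes, and 5 of these 6 contained it, namely Clec4d, Clec4e, Clec5a, Clec7a and Clec12a. Members were counted by gene, whereas the shares are by window, and Clec7a had 2 windows. Clec5a had 2 matches, 81 and 55 bases upstream of the start, and Clec4e also had 2, at 123 and 56 bases. None was found in Clec4a2. The longer motif GGAAGTG, present in 8.55% of all windows, and the GATA motif AGATAAG, present in 2.74%, were found in 0 of the 6 genes. Only these exact motifs were searched, so other sites with a GGAA core, such as those in the Clec4a2 window, were not counted. The part of the matches in the changes of the genes was not tested.

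Levels are given below on a log2 scale on which each array's own 75th percentile of processed intensity is 0. They can be compared between arrays for 1 probe but not between probes. A difference was called when the adjusted p-value of limma, corrected by Benjamini-Hochberg over all 36585 tested probes, was under 0.05. A gene was called by its brightest tested probe. No label says whether the 3 arrays of a group came from separate cultures, so the p-values measure only the spread between these arrays. By the names of the deposited scans, the arrays lay on 3 slides with 1 array of each group on each, which no label states. The differences within slides so defined are given beside the main results.

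Between 80.4% and 89.6% of spots were well above background on the 9 arrays. EV replicate 3 stood furthest from the others, with a mean correlation of 0.960 with the other arrays against 0.971 to 0.978 for the rest. Spi1 was 1.39 higher on the log2 scale in Gata2 KD (SE 0.16, limma adjusted p = 0.0012) and fell by 1.73 in Pu.1 KD (SE 0.16, adjusted p = 0.0018). Gata2 fell by 1.61 in Gata2 KD (SE 0.23, adjusted p = 0.0041), and its change in Pu.1 KD was -0.15 (adjusted p = 0.96). The targeted gene was thus lower in the cells of each label. In bulk RNA, fewer cells expressing a gene and less RNA per cell cannot be told apart, and this holds for every level below.

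In Gata2 KD, 3 of the 7 tested receptor genes were called higher than in EV, Clec5a, Clec4a2 and Clec4n, against 4.21% of all 15808 tested genes. Clec10a, 1 of 7, was called lower, against 2.95% of all genes. The median change of the 7 genes was 0.90 on the log2 scale, beside -0.09 for all tested genes. That middle value was the change of Clec12a, a dim gene that was not called. In Pu.1 KD, only Clec5a of the 7 was called lower, against 2.16% of all genes, and 0 of 7 were called higher, against 1.45%. By limma at an unadjusted p under 0.05, 1 of the 7 was higher (Clec4d), against 6.03% of all genes, and 4 were lower (Clec4a2, Clec4e, Clec5a and Clec10a), against 8.38%, in Pu.1 KD. The median change there was -0.57, beside -0.04 for all tested genes. The EV arrays serve both comparisons, so the 2 sets of changes are not independent.

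**Figure D1:**
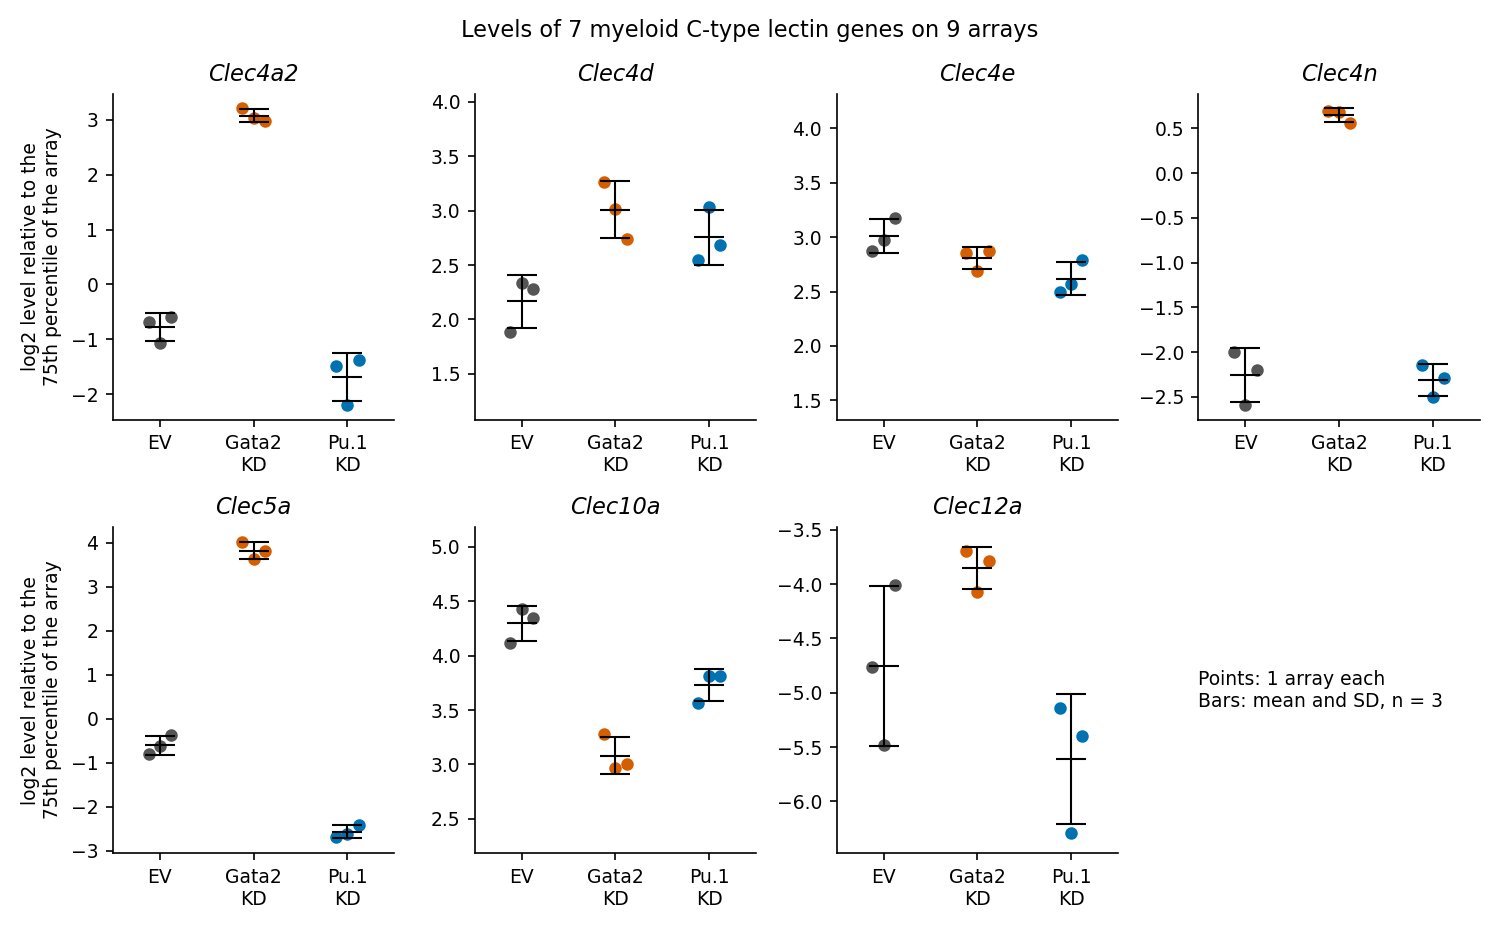
Level of each of the 7 tested genes on each array by its brightest probe (vertical axis, log2 relative to the 75th percentile of the array, each panel with its own range) in EV, Gata2 KD and Pu.1 KD, with bars for the mean and SD of 3 arrays. Clec5a, Clec4a2 and Clec4n stood far higher in Gata2 KD than in EV, Clec10a stood lower, and Clec4e differed little.

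Clec5a (MDL-1), an activating receptor of monocytes and neutrophils, moved furthest. In EV its brightest probe read -0.80, -0.61 and -0.37 on the 3 arrays. In Gata2 KD it read 4.02, 3.63 and 3.81. In Pu.1 KD it read -2.68, -2.62 and -2.40. No array of any group came near those of another group, with Gata2 KD at the top, EV between and Pu.1 KD at the bottom. The rise in Gata2 KD was 4.42 on the log2 scale, or 21.4-fold (SE 0.17, limma adjusted p = 7.5e-06), and ranked 23 of 15808 genes from the largest rise. The fall in Pu.1 KD was -1.97, or 3.92-fold lower (SE 0.17, adjusted p = 0.0016), and ranked 44 from the largest fall. Within slides the rise was 4.0 to 4.63 and the fall between -2.31 and -1.60.

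Clec5a has 2 further probes, and all 3 rose in Gata2 KD. Probe A_51_P398376, designed on another transcript accession, rose by 3.04 (SE 0.22, limma adjusted p = 0.00012), and A_52_P142888 by 4.01 (SE 0.33, adjusted p = 0.00023). The last was well above background on only 1 of 3 EV arrays and on 0 of 3 Pu.1 KD arrays. It thus passed the filter on low signal mainly through Gata2 KD, which was at least 16.3-fold above Pu.1 KD by that probe. Its call in Gata2 KD is therefore not counted as further evidence. In Pu.1 KD the change from EV was -0.34 by A_51_P398376 (SE 0.22, 95% interval -0.85 to 0.18, limma adjusted p = 0.72), an interval that does not reach the fall of the brightest probe, A_52_P218058. The dim probe A_52_P142888 cannot show a difference between EV and Pu.1 KD. The call of Clec5a as lower in Pu.1 KD is thus that of its brightest probe.

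Clec4a2, the inhibitory receptor DCIR of dendritic cells and monocytes, rose as clearly. In EV its brightest probe read -0.68, -1.06 and -0.59. In Gata2 KD it read 3.21, 3.04 and 2.98, and in Pu.1 KD -1.49, -2.19 and -1.37. The 3 groups did not overlap and stood in the same order as for Clec5a. The rise in Gata2 KD was 3.85, or 14.5-fold (SE 0.24, limma adjusted p = 4.9e-05), and it was 3.63 to 4.28 within slides. The change in Pu.1 KD was -0.91 (SE 0.24, 95% interval -1.45 to -0.36) and missed the threshold (limma adjusted p = 0.11).

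A dimmer Clec4a2 probe gave larger differences. Probe A_51_P444092 rose by 4.37 in Gata2 KD (SE 0.24, limma adjusted p = 3.2e-05) and fell in Pu.1 KD by 1.90 (SE 0.24, adjusted p = 0.0070). It read -3.35, -3.61 and -2.69 in EV and -5.35, -5.07 and -4.95 in Pu.1 KD, so these groups too did not overlap. Whether Clec4a2 counts as lower in Pu.1 KD thus depends on the probe. The third probe, A_52_P356106, was well above background on 1 EV array, 1 Gata2 KD array and 0 Pu.1 KD arrays, and was not tested.

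Clec4n (Dectin-2), which binds mannans of fungi, rose in Gata2 KD and did not pass the test in Pu.1 KD. In EV it read -1.99, -2.59 and -2.20, and in Gata2 KD 0.70, 0.69 and 0.56. In Pu.1 KD it read -2.15, -2.5 and -2.29, inside the range of the EV arrays. The rise was 2.91, or 7.51-fold (SE 0.18, limma adjusted p = 5.2e-05), and 2.56 to 3.29 within slides. The change in Pu.1 KD was -0.05 (SE 0.18, 95% interval -0.47 to 0.36, adjusted p = 1.0). Unlike those of Clec5a and Clec4a2, the EV and Pu.1 KD arrays of Clec4n overlapped.

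Clec10a, a galactose-type lectin of macrophages and dendritic cells, went the other way. In EV it read 4.12, 4.43 and 4.34, in Gata2 KD 3.28, 2.96 and 3.0, and in Pu.1 KD 3.56, 3.81 and 3.82. All 3 groups stood apart, with EV highest and Gata2 KD lowest. The fall in Gata2 KD was -1.22, or 2.33-fold lower (SE 0.16, limma adjusted p = 0.0025), and it was between -1.38 and -1.12 within slides. In Pu.1 KD the change was -0.57 (SE 0.16, 95% interval -0.92 to -0.21) and was not called (limma adjusted p = 0.12).

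The Fcer1g-coupled receptors Clec4d and Clec4e, which bind the mycobacterial cord factor, passed no test against EV. Clec4d read 1.88, 2.33 and 2.28 in EV, 3.27, 3.02 and 2.74 in Gata2 KD and 2.54, 3.03 and 2.68 in Pu.1 KD. Every knockdown array stood above every EV array. The changes were 0.84 in Gata2 KD (SE 0.21, 95% interval 0.37 to 1.32, limma adjusted p = 0.060) and 0.59 in Pu.1 KD (SE 0.21, 95% interval 0.11 to 1.06, adjusted p = 0.25). Clec4d was the only receptor gene with the value above EV in both knockdowns. With the slide as a block its change in Gata2 KD was called (0.84, limma adjusted p = 0.013).

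Clec4e read 2.87, 2.97 and 3.18 in EV, 2.86, 2.69 and 2.87 in Gata2 KD and 2.5, 2.57 and 2.79 in Pu.1 KD. Gata2 KD overlapped EV, and Pu.1 KD lay just below it. The changes were -0.20 (SE 0.15, 95% interval -0.53 to 0.14, limma adjusted p = 0.71) and -0.39 (SE 0.15, 95% interval -0.72 to -0.05, adjusted p = 0.29). The upper end of the interval in Gata2 KD lay below the rises of Clec5a, Clec4a2 and Clec4n.

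Clec12a, the inhibitory receptor MICL of granulocytes and monocytes, was dim. Its probe was well above background on 2 of 3 EV arrays, 3 of 3 Gata2 KD arrays and 2 of 3 Pu.1 KD arrays. It read -4.76, -5.48 and -4.01 in EV, -3.70, -4.07 and -3.79 in Gata2 KD and -5.14, -6.29 and -5.39 in Pu.1 KD. Each knockdown overlapped EV. The changes were 0.90 in Gata2 KD (SE 0.40, 95% interval -0.03 to 1.82, limma adjusted p = 0.37) and -0.86 in Pu.1 KD (SE 0.40, 95% interval -1.78 to 0.07, adjusted p = 0.46).

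**Figure D2:**
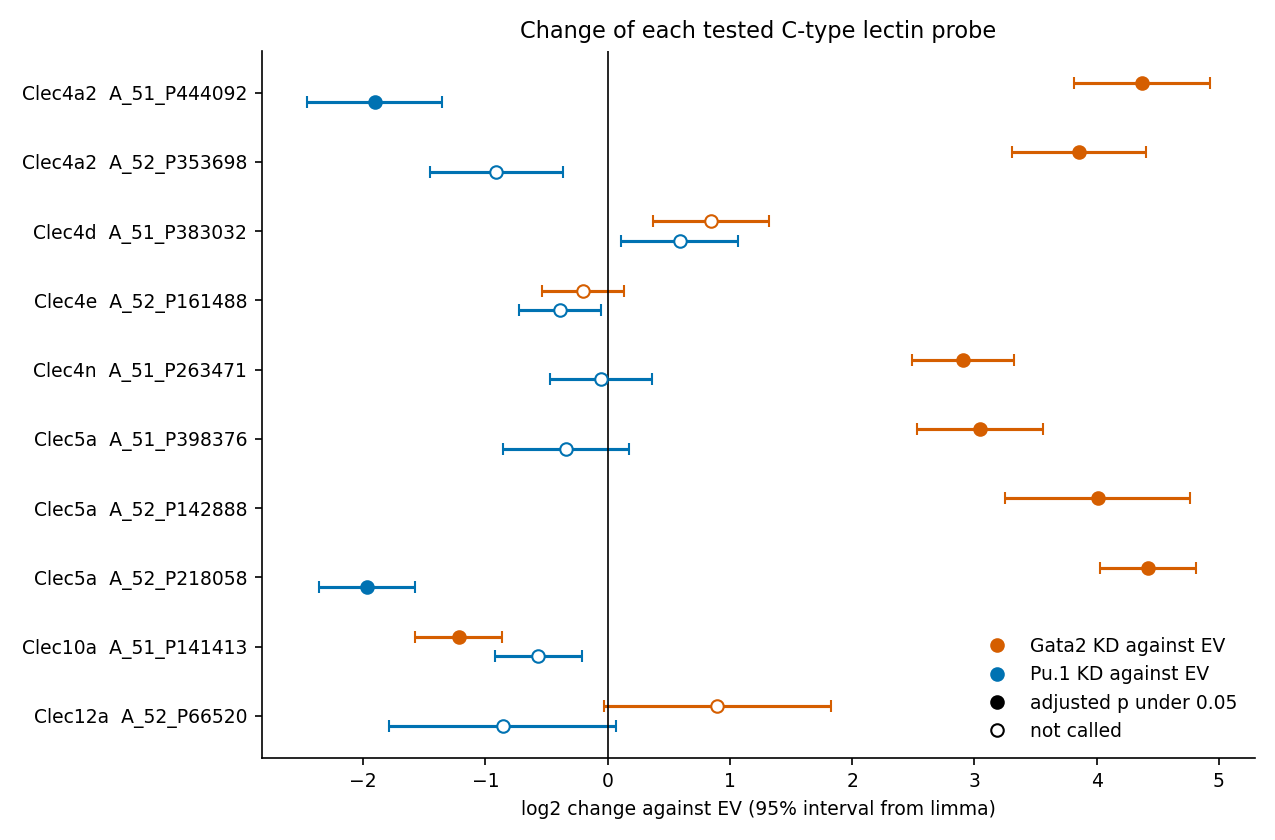
Change of each of the 10 tested probes against EV (horizontal axis, log2) in Gata2 KD and Pu.1 KD, with 95% intervals from limma and filled points for adjusted p under 0.05. Both tested probes of Clec4a2 and all 3 of Clec5a lay to the right of 3 in Gata2 KD, while in Pu.1 KD 1 probe of each gene was called lower and A_52_P142888, at or near background in EV and Pu.1 KD, has no point.

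As among all genes, arrays that did not overlap with EV were more frequent among these genes than calls were. In Gata2 KD, 4 of the 7 stood wholly above EV, against 9.5% of all genes, and 1 of 7 wholly below, against 13.6%. In Pu.1 KD, 1 of 7 stood wholly above EV, against 8.61% of all genes, and 4 of 7 wholly below, against 11.9%. A count of 1 of 7 does not stand out from these shares.

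The 2 knockdowns were also compared directly. In Gata2 KD, 4 of 7 genes were called higher than in Pu.1 KD, against 6.77% of all genes, and 1 was called lower, against 5.6%. The higher genes were Clec5a, with a difference of 6.39 (SE 0.17, limma adjusted p = 6.3e-07), Clec4a2 with 4.76 (SE 0.24, adjusted p = 7.4e-06), Clec4n with 2.96 (SE 0.18, adjusted p = 2.4e-05) and Clec12a with 1.76 (SE 0.40, adjusted p = 0.029). Clec10a was lower, with a difference of -0.65 (SE 0.16, adjusted p = 0.034). Clec4d and Clec4e differed by 0.26 (95% interval -0.22 to 0.73) and 0.19 (95% interval -0.14 to 0.52) and were not called.

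The direct calls of Clec12a and Clec10a were close to the threshold. Clec12a lost its call without EV replicate 1 (limma adjusted p = 0.050), Gata2 KD replicate 1 (0.095), 2 (0.075) or 3 (0.097), or Pu.1 KD replicate 2 (0.093) or 3 (0.071). Clec10a lost it without Gata2 KD replicate 2 (limma adjusted p = 0.15) or 3 (0.13), or Pu.1 KD replicate 1 (0.056), 2 (0.12) or 3 (0.12), with differences of -0.73 to -0.59. With normexp background correction the Clec12a difference was 0.37 (limma adjusted p = 0.26).

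Across the 9 arrays the levels of Clec4a2 and Clec5a had a Pearson correlation of 0.986, Clec4a2 and Clec4n of 0.983, and Clec4n and Clec5a of 0.948. Clec10a ran against all 3, with correlations from -0.861 to -0.669, and Clec4e was near 0 with Clec4n (-0.01). These are descriptions, since 3 groups of arrays set most of the spread. The 5 named genes whose levels ran most like the mean of the 7 receptor genes were Rspo1, Wfdc21, Ccl2, Cables1 and Mogat2, with correlations from 0.996 to 0.999 over the 9 arrays among 15768 genes. That mean is set largely by Clec5a, Clec4a2 and Clec4n.

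Several of the receptor genes are neighbours. In RefSeq order on chromosome 6 the protein-coding genes of the Clec4 cluster run Clec4a1, Clec4a3, Clec4a4, Clec4b1, Clec4a2, Clec4b2, Clec4n, Clec4d and Clec4e. Clec4a1 did not pass the filter on low signal, and no probe was tied to Clec4a4 or Clec4b2, so these have no test. Clec4b1 rose by 3.97 (SE 0.21, limma adjusted p = 2.9e-05). Clec4a3 was not well above background in EV or Pu.1 KD but was so on all 3 Gata2 KD arrays, which put it at least 4.59-fold above EV (limma adjusted p = 0.0059). As it passed the filter through Gata2 KD alone, that call is not counted. Of the other 5 tested genes of the cluster, 3 (Clec4b1, Clec4a2 and Clec4n) were called higher in Gata2 KD, against 4.21% of all genes. Clec4d and Clec4e, next to Clec4n, were not. In Pu.1 KD the change of Clec4b1 was -0.97 (limma adjusted p = 0.058), and 0 of these 5 genes were called by limma. At an unadjusted p under 0.05, 3 were lower (Clec4a2, Clec4e and Clec4b1), against 8.38% of all genes, and 1 was higher (Clec4d), against 6.03%. Cross-hybridisation between these similar genes was not tested.

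Clec10a also has a close relative as its neighbour on chromosome 11, Mgl2 (MGL2), named here after its values were seen. Mgl2 rose by 2.44 in Gata2 KD (SE 0.18, limma adjusted p = 0.00011), where Clec10a fell by 1.22. In Pu.1 KD both had values below EV and neither was called, with -0.78 for Mgl2 (adjusted p = 0.063) and -0.57 for Clec10a. The adjacent pair therefore moved in opposite directions in Gata2 KD.

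**Figure D3:**
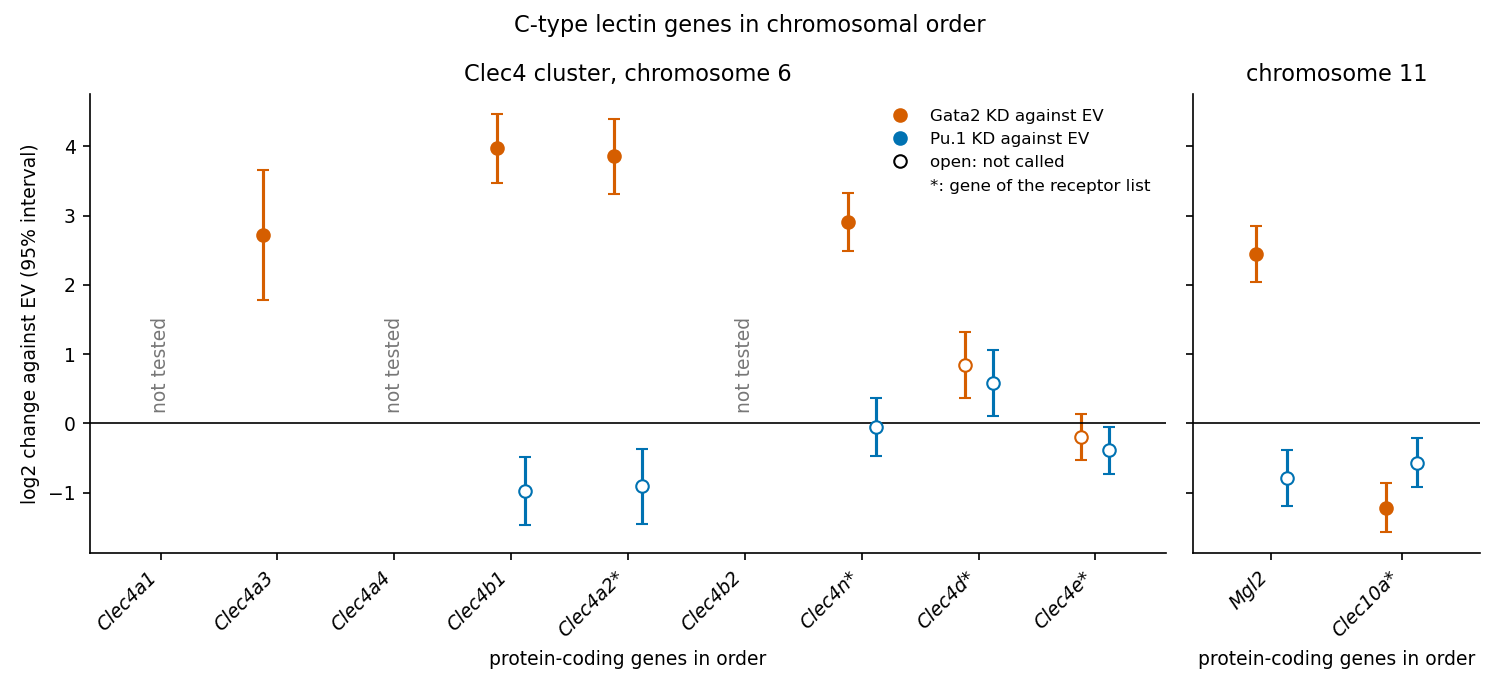
Change against EV (vertical axis, log2, with 95% intervals) of genes in chromosomal order in the Clec4 cluster and in the pair Mgl2 and Clec10a, for Gata2 KD and Pu.1 KD. Clec4b1, Clec4a2 and Clec4n were called higher in Gata2 KD and Clec4d and Clec4e were not, Clec4a3 (well above background in Gata2 KD alone) has no point for Pu.1 KD, while Mgl2 and Clec10a lay on opposite sides of 0.

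Among 36 other C-type lectin genes, 30 were tested. In Gata2 KD 6 of them were called higher, against 4.21% of all genes, and 1 lower, against 2.95%, and the median change was -0.06. Of the 6, Mrc1 and Clec4a3 passed the filter on low signal through the Gata2 KD arrays alone, so their calls do not add to that count as evidence. Mrc1, the mannose receptor of macrophages, stood at least 6.86-fold above EV (limma adjusted p = 0.00057). Of the others Clec4b1 rose furthest. In Pu.1 KD only Clec1b, the platelet receptor CLEC-2, was called, 1 of the 30 against 1.45% of all genes called higher. It was higher by 1.1 (SE 0.22, limma adjusted p = 0.038), as well as by 1.69 in Gata2 KD (adjusted p = 0.0026).

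The adaptors of the receptors differed from each other. Tyrobp, the partner of Clec5a, was 1.14 higher in Gata2 KD (SE 0.17, limma adjusted p = 0.0050) and fell in Pu.1 KD by 2.48 (SE 0.17, adjusted p = 0.00079). Its direction was that of Clec5a in both knockdowns. Fcer1g, the partner of Clec4n, Clec4d and Clec4e, changed by 0.06 in Gata2 KD (95% interval -0.28 to 0.40, adjusted p = 0.97) and by -0.07 in Pu.1 KD (95% interval -0.41 to 0.27, adjusted p = 0.99). Clec4n thus rose 7.51-fold in Gata2 KD while its adaptor had no call. Hcst, the adaptor DAP10, was not called either, with -0.01 and 0.14.

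Of 24 adaptor and signalling genes, 22 were tested. In Gata2 KD 7 of the 22 were called higher, against 4.21% of all genes, and 0 lower, against 2.95%, with a median change of 0.22. By limma at an unadjusted p under 0.05, 10 were higher, against 7.72% of all genes, and 0 lower, against 10.2%. In Pu.1 KD 2 of the 22 were called lower, against 2.16% of all genes, and 0 higher, against 1.45%, with a median of -0.10. At an unadjusted p under 0.05, 4 were lower, against 8.38%, and 1 was higher, against 6.03%.

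Of 5 tested kinases, 2 were called higher in Gata2 KD, against 4.21% of all genes. In Pu.1 KD 1 was called lower, against 2.16%. Fgr, a SRC-family kinase of phagocytes, rose by 2.45 in Gata2 KD (SE 0.25, limma adjusted p = 0.00068) and Syk by 1.33 (adjusted p = 0.010). Lyn, which can act on inhibitory as well as activating receptors, was lower in Pu.1 KD by -1.17 (adjusted p = 0.028) and had 0.50 in Gata2 KD (adjusted p = 0.34). Src and Btk were not called in either knockdown.

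The changes called downstream of SYK were smaller than that of Fgr. Prkcd, the kinase that activates CARD9, rose by 0.93 in Gata2 KD (limma adjusted p = 0.013) and the exchange factor Vav3 by 0.71 (adjusted p = 0.021), whereas Vav1 and Plcg2 were not called. Of 5 genes listed for the CARD9 complex, 4 were tested, Bcl10, Malt1, Traf6 and Map3k7, so Card9 itself has no value here. None of the 4 was called against EV by limma, with Malt1 in Gata2 KD (0.54, adjusted p = 0.20) the only one at an unadjusted p under 0.05. Relb, an NF-kB subunit, rose by 1.42 in Gata2 KD (adjusted p = 0.0010), and Rela and Rel did not pass. Ptpn6 (SHP-1), the phosphatase recruited by inhibitory tails such as those of Clec4a2 and Clec12a, rose by 0.87 in Gata2 KD (adjusted p = 0.025), while Ptpn11 and Inpp5d were not called. No tested gene downstream of the adaptors and kinases was called in Pu.1 KD.

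**Figure D4:**
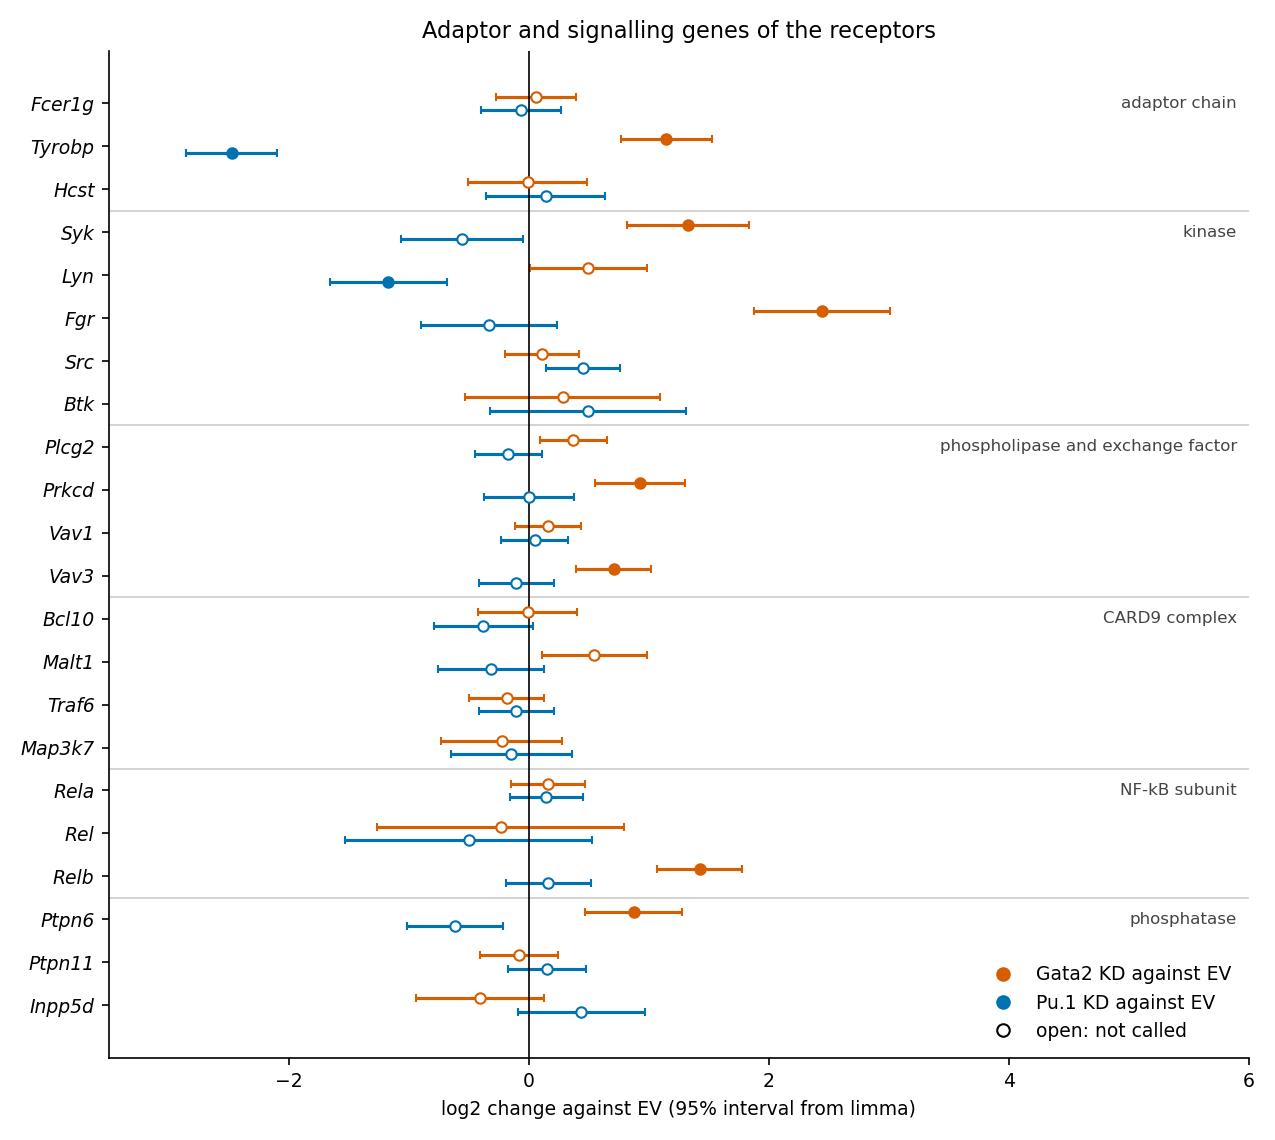
Change against EV (horizontal axis, log2, with 95% intervals) of the 22 tested adaptor and signalling genes, grouped by role, in Gata2 KD and Pu.1 KD, with filled points for adjusted p under 0.05. Tyrobp was called in both knockdowns, higher in Gata2 KD and lower in Pu.1 KD. Fcer1g and the 4 tested genes of the CARD9 complex, Card9 not among them, had no call.

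Inflammatory genes that these receptors can switch on were mixed. Of 13 such genes, 11 were tested. In Gata2 KD 5 were called higher, against 4.21% of all genes, and 1 lower, against 2.95%. Cxcl2, a neutrophil-attracting chemokine, rose by 1.80 (limma adjusted p = 0.0078) and Il1b by 1.60 (adjusted p = 0.0032). Il6 went the other way, with -2.10 in Gata2 KD (limma adjusted p = 0.00045) and -1.09 in Pu.1 KD (adjusted p = 0.027). It was the only one of the 11 called in Pu.1 KD, against 2.16% of all genes called lower.

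The summed markers of maturing myeloid cells stood in the same order of groups as Clec5a and Clec4a2. The summed level of 7 tested of 10 monocyte and macrophage markers was 4.89 to 5.54 times the 75th percentile on the EV arrays, 30.4 to 33.9 in Gata2 KD and 2.41 to 2.71 in Pu.1 KD. For 14 tested of 15 neutrophil markers it was 241 to 271, 1138 to 1358 and 106 to 125. In Gata2 KD 6 of the 7 and 12 of the 14 were called higher, against 4.21% of all genes. In Pu.1 KD 2 of the 7 and 9 of the 14 were called lower, against 2.16%. Csf1r, the receptor for M-CSF, rose by 4.52 (limma adjusted p = 1.3e-05) and Mmp8, a neutrophil collagenase, by 5.04 (adjusted p = 3.5e-06) in Gata2 KD.

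Most mast cell and basophil markers were lower in Gata2 KD, as Clec10a was. Of 9, all tested, 7 were called lower in Gata2 KD, against 2.95% of all genes. In Pu.1 KD 3 were called lower (Fcer1a, Hdc and Prss34), against 2.16% of all genes. The mast cell protease Cma1, 1 of the 9, was called higher, against 1.45%, by 1.49 (limma adjusted p = 0.020). Their summed level was 126 to 145 in EV, 24.6 to 26.7 in Gata2 KD and 90.0 to 98.2 in Pu.1 KD, the same order of groups as Clec10a. Il1rl1, the IL-33 receptor, was lower by -3.21 (limma adjusted p = 1.4e-05). Of 10 dendritic cell markers only Cd74 and H2-Ab1, genes of MHC class II presentation that macrophages also use, were called. Both were higher in Gata2 KD, against 4.21% of all genes, and lower in Pu.1 KD, against 2.16%. Of 4 tested lymphoid markers none was called in either knockdown by limma, nor passed an unadjusted p of 0.05, with changes from -0.07 to 0.07. Of 8 markers of the progenitor line, all were well above background on every array. Kit and Cd34 were called higher in Gata2 KD, against 4.21% of all genes, and Gata2 lower, against 2.95%. In Pu.1 KD Kit was called higher, against 1.45%, and Cd34 lower, against 2.16%. Every tested marker was well above background on at least 1 array of each group (the lymphoid marker Ncr1 did not pass the filter). The part of the shifts in cell type markers in the changes of the receptor genes was not tested.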

How the data were processed

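RNA of 9 samples (150 ng each) was labelled with Cy3 and hybridised to single-colour Agilent whole mouse genome arrays. The deposited scanner files hold intensity values from Feature Extraction 10.1.1.1, background-subtracted as the processed signal. The authors also deposited a table of normalised log2 values, whose normalisation is not given in the sources used here. It correlated at 0.997 or above with the log2 median signal of each array, and 12 of its rows held no number.

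From the intensity values, control spots and outlier spots (47 to 96 an array) were left out, log2 processed signals were averaged per probe and each array's 75th percentile over probes was subtracted. Probes well above background on at least 3 of 9 arrays, with 2 values in every group, were tested with limma 3.58.1 in R 4.3.3 (all 9 arrays, group means, two-sided, Benjamini-Hochberg). The procedure was tested on simulated data. Accessions of 23374 of 41174 probes matched RefSeq names (GRCm38.p6). All 8 genes, every signalling gene, the 3 largest calls of the other lists and the 5 most alike genes could be named. Members, lists and rules were chosen with earlier results of these data known. Alternatives were another background correction, scaling, filter, variance model or block, the deposited log2 values, and leaving out each array. Normexp was run on the median signal. Some genes are not reported here. The number of arrays limits the precision.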

Additional observations from a re-analysis of the deposited data

How the results depend on the processing

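The rises of Clec5a, Clec4a2 and Clec4n and the fall of Clec10a in Gata2 KD, and the fall of Clec5a in Pu.1 KD, kept their direction and stayed past the threshold in every alternative run on their brightest probes. The count of genes called higher in Gata2 KD against EV was 3 and became 5 with quantile scaling and 5 with the deposited log2 values, by Clec4d and Clec12a. Clec4d alone joined under 4 others, normexp, the slide block, the filter on all 9 arrays and limma's trend and robust setting. The count called lower in Pu.1 KD was 1 and became 2 with normexp, 2 with quantile scaling, 3 with the trend and robust setting and 3 with the deposited values, by Clec4a2 and, under both of the last settings, Clec10a. With the deposited values 1 gene, Clec4d, was called higher in Pu.1 KD. In the direct comparison the count called lower was 1 and became 0 with median scaling, and 0 with only the groups compared. Leaving out 1 array at a time gave 0 to 1 lower and 3 to 4 higher there, and no other count moved. With every tested probe counted, 6 were higher in Gata2 KD, 2 lower in Pu.1 KD and 7 higher in the direct comparison. Clec4a2 and Clec5a have several probes and so count more than once. Of all 36585 tested probes, 1902, 986 and 3524 were called in either direction in these comparisons. Both the 6 and the 7 include the Clec5a probe A_52_P142888, which passed the filter mainly through Gata2 KD and does not add to them as evidence. The change of Clec4n in Pu.1 KD, not called, ran from -0.22 to 0.081 without single arrays and turned to 0.081 without EV replicate 1 and to 0.045 without Pu.1 KD replicate 2. Taking the 75th percentile over spots in place of probes, an alternative chosen after seeing the data, changed no call. For the other changes the cause was not tested.

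No label says whether arrays with the same replicate number were prepared together. The deviations of same-numbered arrays correlated from -0.55 to 0.65. The pair at 0.65, EV replicate 2 and Pu.1 KD replicate 2, also shared a slide, so this range does not settle it. With the replicate block the count called lower in the direct comparison was 0 in place of 1 (Clec10a, limma adjusted p = 0.11), no other receptor gene changed its call, and the probes called fell from 1902 to 1172 in Gata2 KD and from 986 to 234 in Pu.1 KD against EV. The deviations of same-slide arrays correlated from -0.04 to 0.72, and with the slide block the probes called rose to 2886 and 1875. Low signal limits what can be said of Clec12a.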
